A study of Mus musculus with 8 samples.

Results

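The growth hormone (GH) and insulin-like growth factor (IGF) axis of the liver was described in aged obese female mice through 10 genes out of the 56884 in the count tables: Ghr, Socs2 and Cish of GH receptor signalling, Igf1 and its serum partner Igfals, the binding protein genes Igfbp1, Igfbp2 and Igfbp4, and the major urinary protein genes Mup3 and Mup20. They were chosen by function, with earlier results of these data known, and found by matching each Ensembl identifier to its symbol. All 10 passed the filter on low counts. Liver poly(A) RNA was sequenced from 3 DIO mice and 5 DIO + DHA mice, 1 library from each. All were C57BL/6J females that were fed, from 2 months of age, a high-fat diet in which lipids supplied 45% of the energy. After 4 months on it they were divided into the DIO group, which stayed on that diet to 18 months of age, and the DIO + DHA group, in which a fish oil concentrate holding 683.4 mg/g of docosahexaenoic acid (DHA) took the place of 15% (wt/wt) of the lipids up to the same age. Per the study's methods, the mice of both groups were fasted overnight before the livers were taken, and the DIO diet was given the tocopherols that the concentrate carries. The groups had no lean and no young counterpart among these libraries, so the values compare obese aged mice with each other.

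GH from the pituitary binds its receptor on hepatocytes, which activates the kinase JAK2 and the transcription factor STAT5. STAT5 drives Igf1, Igfals, and the feedback inhibitors Socs2 and Cish, and liver is the main source of circulating IGF1. In blood most IGF1 is held in a complex with a binding protein and the acid-labile subunit encoded by Igfals, while IGFBP1 and IGFBP2 are smaller carriers that respond to fasting and insulin. Mup genes encode pheromone carriers made by the liver, many of them under GH control and more active in males, and the daily pattern of GH release sets which liver genes are sex-biased.

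The libraries held 1723800 to 5690347 counts, and DIO replicate 1 was the shallowest. Levels are given as CPM (counts scaled to a common library total, with TMM factors), and differences as the log2 fold change of DIO + DHA over DIO with its standard error (SE), tested with edgeR's quasi-likelihood test and Benjamini-Hochberg adjustment over 12412 tested genes. All 8 listed hepatocyte markers were detected, with a summed level of 75900 to 80830 CPM in the DIO libraries and 79200 to 92750 CPM in the DIO + DHA libraries. At an adjusted p under 0.05 in edgeR, 2 of the 8 were higher, Apoa1 (log2 fold change 0.52, adjusted p = 8.1e-11) and Tat (0.24, 0.0105). Cyp2e1 was lower (-0.22, 0.0074), and 5 did not pass. Markers of other cells also differed between the groups. The summed level of 10 skeletal muscle markers was 29.8 to 34.4 CPM in the DIO and 1169 to 1246 CPM in the DIO + DHA libraries, and that of 9 squamous epithelium markers was 0 to 0.360 against 49.2 to 52.7 CPM, with Krt13 at 0 in every DIO library. Of 5 adipocyte markers, at 1.24 to 3.93 CPM in all against 33.6 to 55.2 CPM, 3 were tested and all rose. Adipoq and Retn, with at most 3 counts in any DIO library, passed the filter only through the DIO + DHA group. They could hardly be called in the other direction. The 10 macrophage markers had a summed level of 617 to 700.0 CPM in the DIO and 342 to 379 CPM in the DIO + DHA libraries, where 8 fell and 1 rose. Of 8 lymphocyte markers, at 132 to 147 CPM in all against 44.9 to 54.1 CPM, 5 were tested and all fell. Of these, Cd8a passed the filter only through the DIO group, where it was high. Among the untested ones the mean of Ms4a1 was higher in the DIO + DHA group (0.178 against 0.930 CPM, at most 6 counts in any library). Those of Cd3e and Cd79a were lower. Of 8 endothelial markers 2 fell and none rose, at 217 to 245 CPM against 165 to 194 CPM. Of 8 stellate cell and fibroblast markers 1 fell (Lrat) and 1 rose (Des), at 245 to 261 CPM against 227 to 239 CPM. The mean of Des was 1.52 CPM in the DIO and 16.9 CPM in the DIO + DHA group, where the skeletal muscle markers were higher too. Of 5 bile duct markers, at 5.61 to 6.12 CPM against 7.36 to 11.8 CPM, 4 were tested and 1 rose. The part of these shifts in the results below was not tested, and in bulk liver fewer cells of a type and less RNA per cell cannot be told apart. Whether the shifts came from the diet or from another difference between the groups was not tested either.

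Of the 10 genes, 3 rose (Socs2, Igfbp1 and Igfbp2), 3 fell (Ghr, Igf1 and Igfals) and 4 did not pass the test (Cish, Igfbp4, Mup3 and Mup20), at an adjusted p under 0.05. Over all tested genes 7.89% were called higher and 7.28% lower, 15.2% in all. The libraries of the groups did not overlap in 7 of the 10 genes, the 6 called ones and Mup3, against 18.4% of all tested genes, 9.53% with DIO + DHA higher and 8.89% with it lower. The median log2 fold change of the 10 was -0.06, beside 0.00 over all tested genes. Under the rule of the study's methods, a log-odds B above 0 in limma-voom, Igf1 and Igfbp1 lost their calls, which left 2 higher and 2 lower, where 6.93% of tested genes passed.

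**Figure D1:**
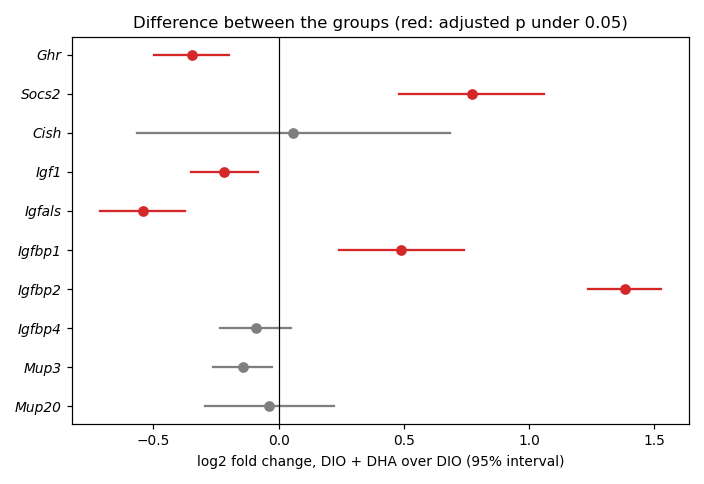
Log2 fold change of DIO + DHA over DIO for each of the 10 genes (points) with its 95% interval (lines), in red where the adjusted p was under 0.05. Igfbp2 stands farthest to the right at 1.38 and Igfals farthest to the left at -0.54, and the interval of Cish is the widest, from -0.57 to 0.68.

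**Figure D2:**
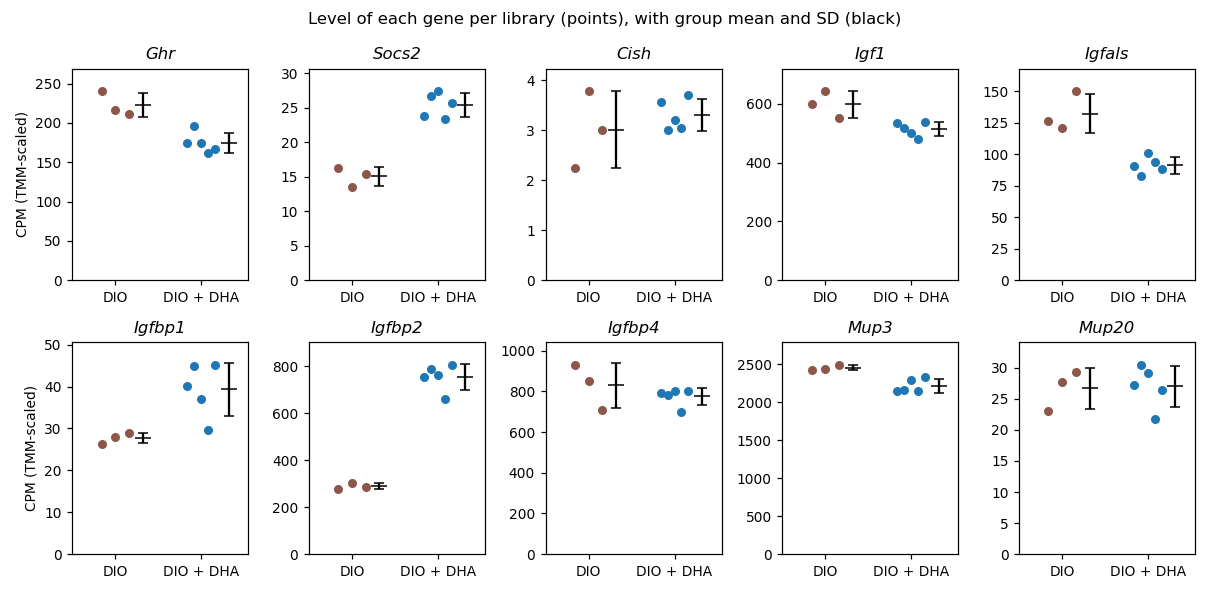
CPM of the 10 genes in each library, 3 DIO (brown) and 5 DIO + DHA (blue), with the group mean and SD in black and every axis starting at 0. The Igfbp2 points of the DIO + DHA group, at 659 to 804 CPM, lie well above those of the DIO group, at 277 to 302 CPM, while the points of Cish, Igfbp4 and Mup20 overlap.

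Ghr (ENSMUSG00000055737.13, chromosome 15, 3347242 to 3612974 of GRCm39), the receptor through which GH acts, was lower in the DIO + DHA group. Its level was 240.3, 217 and 211 CPM in DIO replicates 1, 4 and 5, and 174, 196, 174, 162 and 166 CPM in DIO + DHA replicates 1, 2, 4, 5 and 6. The lowest DIO library was above the highest DIO + DHA library, replicate 2. Mean levels were 223 ± 15.3 and 174 ± 13.0 CPM (SD, n = 3 and 5), and Ghr fell by 0.35 on the log2 scale (SE 0.08, adjusted p = 4.2e-04 from edgeR). Its call was kept in each of the 8 fits that left out 1 library. None of its exon bases is shared with another annotated gene.

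Socs2 (ENSMUSG00000020027.19, chromosome 10, 95221224 to 95253042), a STAT5 target whose protein dampens GH receptor signalling, moved opposite to the receptor. It was at 16.3, 13.5 and 15.4 CPM in the DIO libraries and at 23.7, 26.8, 27.4, 23.4 and 25.7 CPM in the DIO + DHA libraries, in the same order of replicates. The highest DIO library was below all 5 of the others. The means were 15.1 ± 1.42 and 25.4 ± 1.79 CPM (SD, n = 3 and 5), a log2 fold change of 0.77 (SE 0.14, adjusted p = 4.2e-05 from edgeR), which stayed between 0.68 and 0.82 when 1 library was left out. These levels rest on 29 to 120 counts per library.

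Cish (ENSMUSG00000032578.8, chromosome 9, 107173225 to 107179983), another STAT5-driven inhibitor, did not show a difference that these libraries could resolve. Its level was 2.25, 3.78 and 3.01 CPM in the DIO and 3.56, 3.01, 3.20, 3.04 and 3.70 CPM in the DIO + DHA libraries, and the groups overlapped. The log2 fold change was 0.06 with a 95% interval from -0.57 to 0.68 (adjusted p = 0.937 from edgeR). Only 4 to 21 counts per library stood behind it, and the antisense genes Gm17040 and Gm17041 overlap 11.5% of its exon bases, so that reads there were not assigned to it. A change as large as that of Ghr in either direction lies inside this interval.

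Among 21 listed genes of GH receptor signalling, all tested, 1 was higher and 5 lower, with a median log2 fold change of 0.00. The share called over all tested genes was 15.2%. Beside Ghr and Socs2, the called genes included Stat3, Ptpn1 and Ptpn6. Stat3, which carries interleukin-6 signals to the acute phase genes as well as GH signals, went from 108 ± 6.32 to 64.8 ± 6.72 CPM (SD, n = 3 and 5), or -0.74 on the log2 scale (adjusted p = 2.2e-09 from edgeR). Ptpn1, a phosphatase that removes phosphate from insulin receptor and JAK2, was at 54.1 ± 4.09 and 34.9 ± 1.62 CPM (SD, n = 3 and 5), or -0.61 on the log2 scale (adjusted p = 6.9e-06 from edgeR). Ptpn6, a phosphatase of blood cells, had a log2 fold change of -0.38 (adjusted p = 0.0425), a call that was lost in 6 of the 8 fits without 1 library (DIO replicates 1 and 5, and DIO + DHA replicates 2, 4, 5 and 6), with adjusted p-values up to 0.211. The macrophage and lymphocyte markers had lower sums in the DIO + DHA libraries too.

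The kinase and the STAT5 genes themselves did not pass. Jak2 had a log2 fold change of -0.20 (95% interval -0.68 to 0.28), Stat5a one of 0.15 (-0.31 to 0.61) and Stat5b one of 0.13 (-0.20 to 0.47). Socs3, an inhibitor induced by interleukin-6, was at 5.48 ± 0.917 and 4.16 ± 0.919 CPM (SD, n = 3 and 5), with overlapping groups (log2 fold change -0.48, adjusted p = 0.248 from edgeR). Prlr, the prolactin receptor, which is also a GH-responsive gene of the female liver, was at 164 to 171 CPM in the DIO and 138 to 161 CPM in the DIO + DHA libraries without overlap, yet the difference of -0.15 on the log2 scale missed the threshold (adjusted p = 0.204). Beside Cish, the remaining 9 genes of the list, which include Socs1, Socs4 to Socs7, Sh2b1 and Ptpn11, had log2 fold changes between -0.24 and 0.32 and no call. Some of them rested on few counts. Socs1 had at most 9 counts in any library and a 95% interval from -0.95 to 0.96, and Socs5 at most 18 counts and one from -0.790 to 0.685.

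Igf1 (ENSMUSG00000020053.19, chromosome 10, 87694127 to 87772904), the hormone through which much of the growth effect of GH is carried, was modestly lower with DHA. It was at 599, 642 and 550.4 CPM in the DIO libraries and at 534, 517, 499, 479 and 538 CPM in the DIO + DHA libraries. The groups did not overlap, but the gap between DIO replicate 5 and DIO + DHA replicate 6 was small beside the spread within the DIO group. The means were 597 ± 45.9 and 514 ± 24.6 CPM (SD, n = 3 and 5), and Igf1 fell by 0.22 on the log2 scale (SE 0.07, adjusted p = 0.0172 from edgeR). The call was lost without DIO replicate 4, at a log2 fold change of -0.16 (adjusted p = 0.214), and without DIO + DHA replicate 5, at -0.19 (adjusted p = 0.0521).

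Igfals (ENSMUSG00000046070.10, chromosome 17, 25084971 to 25100984), which encodes the acid-labile subunit of the large IGF1 complex in serum, showed a larger fall than Igf1. Its levels were 126, 121 and 150.2 CPM in the DIO and 90.8, 82.9, 101, 93.7 and 88.7 CPM in the DIO + DHA libraries, and all of the latter lay below all of the former. The means were 132 ± 15.6 and 91.5 ± 6.69 CPM (SD, n = 3 and 5), a log2 fold change of -0.54 (SE 0.08, adjusted p = 1.1e-06 from edgeR). DIO replicate 5 was the highest library, and without it the value was -0.43, still called.

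Igfals and Igfbp1 are the members whose promoter carries a letter match to a motif tied to this biology, and these sites are shown for that reason. The searched motifs were the STAT core TTCNNNGAA, which reads the same on both strands, and CAAAACAA on either strand, the core of the insulin response element that FOXO factors bind. The window ran from 250 bases before to 50 bases after the start of the canonical transcript of GENCODE release 39, in GRCm39. Capitals mark the matched letters, and both lines read 5′ to 3′ on the plus strand, which is the strand of both genes.
Igfals, chr17:25097137-25097165: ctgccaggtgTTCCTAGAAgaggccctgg
Igfbp1, chr11:7147669-7147696: agctcacaagCAAAACAAacttattttg
The Igfals match begins 32 bases before its transcript start and the Igfbp1 match 28 bases after its own, which is upstream of the gene as annotated in the count tables. Of 21770 promoters of protein-coding genes, 8.81% held TTCNNNGAA and 3.07% held CAAAACAA. The other 8 members, Socs2, Cish and Igf1 among them, held neither motif in this window, which says only that these letters are not in it.

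Of 9 listed IGF and insulin ligands, receptors and adaptors, 8 were tested, of which 2 were higher and 1, Igf1, was lower, with a median log2 fold change of 0.22. These counts stand beside the 15.2% called over all tested genes. Grb14, an adaptor that inhibits the insulin receptor, rose from 30.5 ± 0.561 to 50.2 ± 2.89 CPM (SD, n = 3 and 5), without overlap, which is 0.73 on the log2 scale (adjusted p = 4.6e-07 from edgeR). Irs2, a substrate of both the insulin and the IGF1 receptor that is induced in fasted liver, was at 10.7 ± 1.98 and 15.4 ± 3.54 CPM (SD, n = 3 and 5), or 0.63 on the log2 scale (adjusted p = 0.0116). The groups overlapped for Irs2, and its call was lost without DIO replicate 4, DIO replicate 5 or DIO + DHA replicate 1, with adjusted p-values from 0.0565 to 0.115, so that 1 gene was then higher. The receptors did not pass: Insr had a log2 fold change of -0.12 (adjusted p = 0.563), Igf2r one of 0.14 (0.646) and Igf1r, at no more than 2.18 CPM in any library, one of 0.30 (0.769). Igf2 had 0 counts in all 8 libraries, with 64.5% of its exon bases shared with other annotated genes.

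Igfbp2 (ENSMUSG00000039323.19, chromosome 1, 72863662 to 72891633), a serum carrier of IGF1 and IGF2 made by hepatocytes, had the largest change of the 10 genes. It was at 277, 302 and 287 CPM in the DIO libraries and at 755, 790, 763, 659 and 804 CPM in the DIO + DHA libraries. The lowest DIO + DHA library, replicate 5, was more than 2-fold above the highest DIO library. Mean levels were 289 ± 12.7 and 754 ± 56.7 CPM (SD, n = 3 and 5), a ratio of 2.61 and a log2 fold change of 1.38 (SE 0.07, adjusted p = 3.7e-23 from edgeR). By p-value it ranked 25 among the 12412 tested genes, and between 493 and 3814 counts per library stood behind it. With any 1 library left out the log2 fold change was 1.36 to 1.43.

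Igfbp1 (ENSMUSG00000020429.8, chromosome 11, 7147782 to 7152546), a carrier that is induced by fasting and repressed by insulin, also rose, but with more spread among the DHA-fed mice. Its levels were 26.4, 27.9 and 28.9 CPM in the DIO and 40.2, 44.8, 37.0, 29.7 and 45.1 CPM in the DIO + DHA libraries. Replicate 5 of the DIO + DHA group lay just above the highest DIO library, and the other 4 lay well above it. The means were 27.7 ± 1.25 and 39.4 ± 6.38 CPM (SD, n = 3 and 5), a log2 fold change of 0.49 (SE 0.12, adjusted p = 0.0030 from edgeR). It was called in all 8 fits that left out 1 library, with log2 fold changes from 0.43 to 0.58.

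Igfbp4 (ENSMUSG00000017493.13, chromosome 11, 98932070 to 98945218), a carrier that mostly restrains IGF action in tissues, did not pass the test. It was at 930, 853 and 708 CPM in the DIO and 795, 782, 801, 701 and 803 CPM in the DIO + DHA libraries. The DIO libraries bracketed nearly all of the DIO + DHA libraries. The log2 fold change was -0.09 (95% interval -0.23 to 0.05, adjusted p = 0.450 from edgeR), so a change as large as that of Ghr lies outside the interval.

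Of 12 listed genes for IGF binding proteins and their release, 8 were tested, of which 3 were higher and 1, Igfals, was lower. Their median log2 fold change was 0.30, and it was the same with Igfbp6 at its lower bound. As given above, 15.2% of all tested genes were called. Igfbp6, a carrier that prefers IGF2, was the third higher gene beside Igfbp1 and Igfbp2. It had 0 counts in each DIO library and 17 to 26 counts in each DIO + DHA library, at least 22.4-fold higher against a floor of 3 counts over the DIO group (adjusted p = 4.0e-11 from edgeR). Igfbp6 passed the filter on low counts only through the DIO + DHA group, so it could be called in that direction alone. The squamous epithelium, skeletal muscle and adipocyte markers had higher sums in the DIO + DHA libraries too, and of these the squamous epithelium markers were at 0.360 CPM or less in all in each DIO library. Their part in the Igfbp6 signal was not tested. Igfbp7, a vessel-associated protein, had a log2 fold change of -0.27 (adjusted p = 0.0688), and it passed without DIO replicate 1, which made 2 lower genes. Igfbp3, the carrier in the large complex with IGF1, was at 11.7 ± 1.22 and 13.3 ± 1.45 CPM (SD, n = 3 and 5) with a log2 fold change of 0.20 (95% interval -0.15 to 0.55, adjusted p = 0.532 from edgeR), and Igfbp5 did not pass either. Pappa, Pappa2, Stc1 and Stc2, which encode proteases and protease inhibitors that govern IGF release, had at most 1 count in any library and were not tested.

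**Figure D3:**
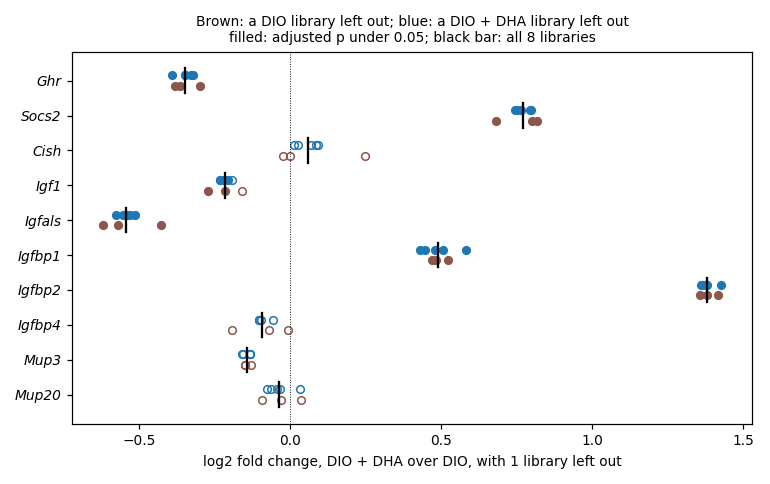
Log2 fold change of each gene with 1 library left out at a time (points; brown for a DIO and blue for a DIO + DHA library, filled where the adjusted p was under 0.05), with the value from all 8 libraries as a black bar. Igf1 is the called gene that has open points, at -0.16 and -0.19, and the signs of Cish and Mup20, which were not called, turn.

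Mup3 (ENSMUSG00000066154.12, chromosome 4, 62001713 to 62005579) supplied most of the reads counted on Mup genes, with 4325 to 14057 counts per library. Its levels were 2428, 2440 and 2489 CPM in the DIO libraries and 2144, 2161, 2299, 2155 and 2338 CPM in the DIO + DHA libraries. Every DIO + DHA library was below every DIO library, yet the difference was small, with means of 2452 ± 32.5 and 2219 ± 91.7 CPM (SD, n = 3 and 5). The log2 fold change of -0.14 (SE 0.06, 95% interval -0.26 to -0.03, not adjusted over genes) did not pass in edgeR (adjusted p = 0.0970). It passed with total counts in place of TMM (log2 fold change -0.17, adjusted p = 0.0157) and in limma-voom (adjusted p = 0.0295).

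Mup20 (ENSMUSG00000078672.3, chromosome 4, 61968471 to 61972395), which encodes darcin, the male pheromone protein that draws females, did not differ beyond its spread. It was at 23.02, 27.7 and 29.4 CPM in the DIO and 27.3, 30.4, 29.2, 21.7 and 26.4 CPM in the DIO + DHA libraries, and the groups overlapped fully. The log2 fold change was -0.04 (95% interval -0.29 to 0.22, adjusted p = 0.907 from edgeR). The means, 26.7 ± 3.31 and 27.0 ± 3.35 CPM (SD, n = 3 and 5), lay in the opposite order to that estimate, and its sign turned when DIO replicate 5 or DIO + DHA replicate 5 was left out.

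The Mup genes lie in a cluster of near-identical copies on chromosome 4, and only reads with a unique alignment were counted. Of the 80-base windows in the exons of Mup3, 10% recur exactly elsewhere in the cluster, and none in its last exon. For Mup20 the share was 81.6%, and 71.8% in the last exon. In Mup16 it was 80.6% over all exons and 64.4% in the last, in Mup11 69.5% and 27.0%, and in Mup17 59.2% and 21.8%. The last exon of Mup21 holds no such window, so its share there was not measured. Over all exons the share was above 90% in 7 of the 22 Mup genes. The level of a gene with a large share is uncertain, since its count stands for the part of its transcripts that differs from the copies.

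Of the 22 Mup genes, 9 were tested, with 1 higher, 3 lower and a median log2 fold change of -0.14. Among all tested genes the called share was 15.2%. Mup21, with 21.6% of its windows shared, went from 12.7 ± 0.716 to 5.11 ± 1.29 CPM (SD, n = 3 and 5), a log2 fold change of -1.30 (SE 0.21, adjusted p = 3.0e-06 from edgeR), on 14 to 71 counts per library. Mup16 had a log2 fold change of -0.80 (adjusted p = 3.5e-05) and Mup17 one of -0.51 (adjusted p = 0.0056). The call of Mup17 was lost without DIO replicate 5 (adjusted p = 0.0628). Mup11, on 3 to 47 counts per library, was the higher gene, at 1.68, 1.98 and 1.24 CPM in the DIO and 6.33, 15.7, 5.34, 5.37 and 5.01 CPM in the DIO + DHA libraries, a log2 fold change of 2.14 (adjusted p = 4.1e-04). Replicate 2 stood far above the other DIO + DHA libraries, and without it the value was 1.76, still called. Mup18 (-0.56, adjusted p = 0.0662), Mup9 (-0.05, 0.952) and Mup12 (0.04, 0.953) did not pass. The remaining 13 had at most 7 counts in any library.

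**Figure D4:**
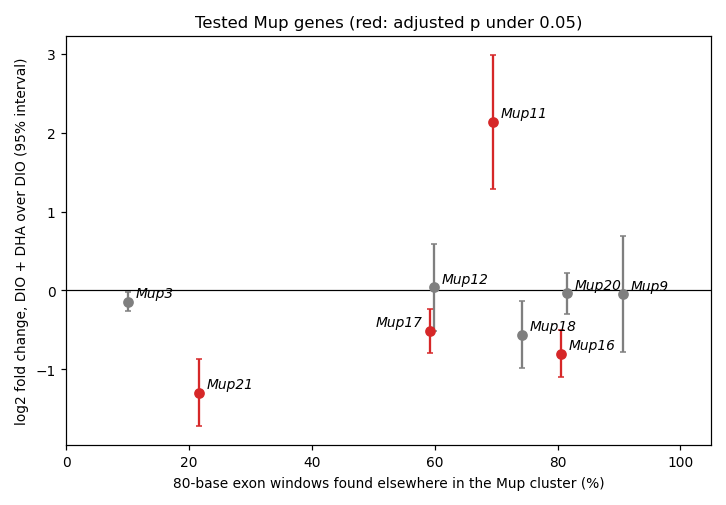
Log2 fold change of DIO + DHA over DIO with its 95% interval for the 9 tested Mup genes, against the percent of 80-base exon windows found elsewhere in the Mup cluster, in red where the adjusted p was under 0.05. Mup3 (10% shared) and Mup21 (21.6%) are the tested genes with the fewest shared windows, and the other 7 lie between 59.2% and 90.6%.

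Genes with a known sex bias in liver, which depends on the pattern of GH release, were listed as well. Of 20 male-biased genes 13 were tested, with 1 higher, 2 lower and a median log2 fold change of -0.04. Of all tested genes 15.2% were called. The higher gene was Elovl3, a fatty acid elongase that is also a gene of brown fat, which was higher by 0.98 on the log2 scale (adjusted p = 0.0099 from edgeR). Its call was lost without DIO replicate 5 (adjusted p = 0.0612), and adipocyte markers were higher in the same libraries. The lower genes were Mup21, given above, and Gstp1, a glutathione transferase, at -0.35 on the log2 scale (adjusted p = 0.0042). Hsd3b5 and Cyp4a12b, strongly male genes, had 0 counts in all 8 libraries of these female mice.

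Of 24 female-biased genes 23 were tested, and 16 were called, 6 higher and 10 lower, with a median log2 fold change of -0.12. Over all tested genes 15.2% were called, and the called genes of the list went both ways. The list was chosen with earlier results of these data known, so this is not an unbiased comparison. The higher genes with the largest changes were A1bg, Sult3a1, Cyp17a1, Cyp3a44 and Cyp39a1. A1bg, a secreted plasma protein, rose from 34.0 ± 1.61 to 141 ± 8.64 CPM (SD, n = 3 and 5), a log2 fold change of 2.07 (SE 0.10, adjusted p = 1.7e-25 from edgeR). Sult3a1, a sulfotransferase, had a log2 fold change of 1.96 (adjusted p = 3.8e-14), Cyp17a1, a steroid hydroxylase, one of 0.87 (1.1e-14) and Cyp3a44 one of 0.78 (2.7e-05). That of Cyp39a1, an oxysterol hydroxylase, was 0.37 (adjusted p = 0.0412) and lost its call without any 1 of DIO replicates 1 and 4 and DIO + DHA replicates 1, 5 and 6.

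The lower female-biased genes with the largest changes were Cux2, Ntrk2, Slc22a27, Cyp3a16 and Sult2a2. Cux2, a transcription factor that represses male-biased genes in female liver, was at 15.7, 9.54 and 11.5 CPM in the DIO and 2.77, 1.67, 3.20, 5.14 and 5.45 CPM in the DIO + DHA libraries, and the groups did not overlap. Its log2 fold change was -1.60 (SE 0.25, adjusted p = 1.2e-06 from edgeR), on 5 to 65 counts per library. Ntrk2, a neurotrophin receptor, had a log2 fold change of -1.17 (adjusted p = 1.8e-05) and Slc22a27, an anion transporter, one of -0.98 (8.5e-09). Cyp3a16 (log2 fold change -0.77, adjusted p = 0.0141) lost its call without DIO replicate 1 (-0.53, 0.120) or replicate 4 (-0.68, 0.122), and Sult2a2 (-0.66, 0.0029) without DIO replicate 4 (-0.38, 0.252). Cyp3a, Sult2a and Sult3a genes have close paralogs, so their single counts are uncertain.

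**Figure D5:**
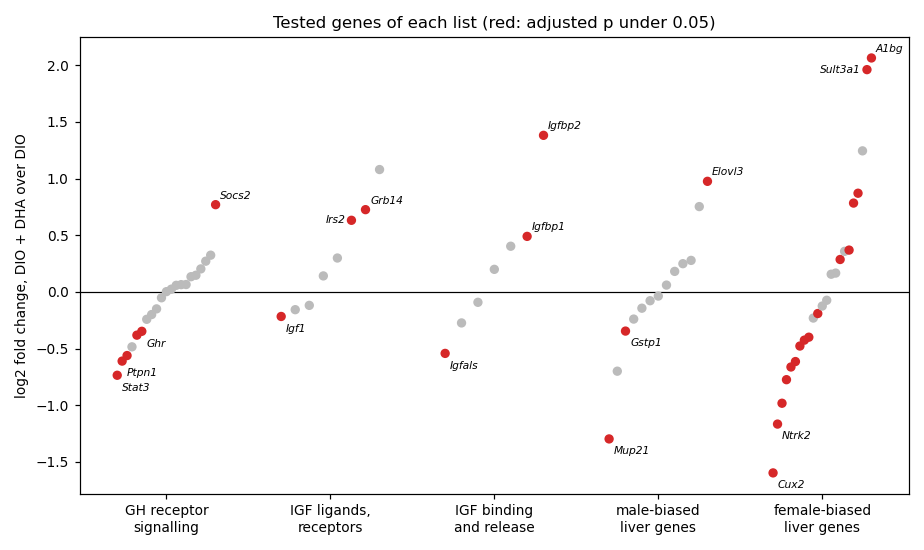
Log2 fold change of DIO + DHA over DIO for the tested genes of 5 lists, sorted within each list, in red where the adjusted p was under 0.05; Igfbp6, with 0 counts in the DIO group, is left out. The female-biased genes spread from -1.60 (Cux2) to 2.07 (A1bg). The estimates of most of the GH receptor signalling genes lie near 0, some of them on few counts.

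Within groups the members varied to different degrees. The coefficient of variation over the DIO libraries (n = 3) ran from 1.33% for Mup3 to 13.6% for Igfbp4 among the genes other than Cish, where it was 25.5% against 34.5% from counting alone. Over the DIO + DHA libraries (n = 5) it ran from 4.13% for Mup3 to 16.2% for Igfbp1. For Igfbp4 in the DIO group counting error alone would give 1.88%, and for Igfbp1 in the DIO + DHA group 8.33%, where each count is taken as independent. For Socs2, with 9.45% and 7.05% against 14.1% and 10.2% from counting, the spread was no larger than counting gives.

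Genes whose level followed that of Ghr most closely over the 8 libraries were ranked among the 6213 genes whose mean reached 10 CPM, as a description. The 5 highest Pearson correlations of log2 CPM were those of Mknk2 (0.99), Slc43a3 (0.98), Prpf38b (0.97), Met (0.96) and Akr1c12 (0.95), of which Met encodes the receptor of hepatocyte growth factor. The values share the group difference and the library totals, and after the group means were removed they were 0.98, 0.90, 0.87, 0.80 and 0.76. Among the members, Igf1 (0.79) and Igfals (0.72) were highest and Igfbp2 (-0.86) was lowest over the 8 libraries. After the group means were removed, the values were 0.58 for Igfbp4, 0.57 for Socs2, 0.39 for Igfbp1, 0.28 for Igfbp2, 0.25 for both Igf1 and Mup20, -0.31 for Mup3 and -0.51 for Igfals. The order of the members thus differed from that over the 8 libraries, and Igfbp4 had nearly the same value in both (0.56 over the 8 libraries).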

How the data were processed

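Liver poly(A) RNA of 3 DIO and 5 DIO + DHA mice was sequenced by an adaptation of SCRB-seq, in which the cDNA is enriched in 3′ ends and carries a molecular identifier. After trimming, the authors aligned reads with STAR 2.7.9a (GRCm39) and summed them over exons per gene with featureCounts 1.6.0 and GENCODE release 33. They deposited whole-number counts per gene, not normalized. Per the file headers strand, multi-mapping and overlap options were at their defaults: strand was ignored, and reads that aligned to several places or fell on overlapping genes were dropped. The sources do not say if molecular identifiers were collapsed, so counting errors may be too small. Because reads come from 3′ ends, counts were not divided by gene length and levels were not compared between genes.

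Groups and replicate numbers came from the sample titles, which name no batch, and no batch was fitted. Symbols came from GENCODE release 39, which named 56323 of 56884 genes. Genes with under 5 counts in over 50% of the libraries of both groups were removed. After TMM scaling, edgeR 4.0.16 (R 4.3.3) gave quasi-likelihood F tests with robust dispersion estimates, and p-values were adjusted by Benjamini-Hochberg. The SE is the log2 fold change divided by the square root of F, and 95% intervals use the t distribution with the fit's degrees of freedom. Averaged over genes, chi-square over its degrees of freedom was at least 1.93 in each of the 13 pairs of libraries within a group. That is more than counting error alone gives, although single genes could vary no more than counting. The average does not show what sets the libraries apart. The tests were checked on simulated counts.

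The members and gene lists were chosen with earlier results of these data known, and the lists were written from general knowledge. All members were named, as were the called genes of the GH, IGF and Mup lists except 1 that is not reported here, up to 5 called genes per direction of the sex-biased lists and the 5 genes most like Ghr. The genes of the GH list that missed the test were given singly or as a range. Alternatives were DESeq2 size factors, total counts, TMM without genes of other tissues and Mup genes, no filter, filterByExpr, DESeq2 1.42.0, limma-voom (limma 3.58.1, prior proportion 0.01), the replicate number as a block, and each library left out in turn. The study's serum, histology and quantitative PCR data were not analysed here.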

Additional observations from a re-analysis of the deposited data

Results flagged for a closer look

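The DIO + DHA libraries were checked for a value far from the other 4, in 48 sets of 5 values, the members, the called genes of the lists and the summed cell type markers. Chance marks about 1 in 20 such sets, and 2 were marked. Igfbp4 was at 701 CPM in DIO + DHA replicate 5, where the other libraries of the group lay between 782 and 803 CPM. Mup11 was at 15.7 CPM in DIO + DHA replicate 2, where the others lay between 5.01 and 6.33 CPM.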

How the results depend on the processing

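Each log2 fold change was recomputed under 18 alternatives. For the members 172 of 180 values kept their side of the threshold, 6 lost a call and 2 gained one, and for the other named genes 468 of 522 kept it and 54 lost a call. None of these called values turned sign. With limma-voom and B above 0, Igf1 (-0.21) and Igfbp1 (0.47) were no longer called, the female-biased list had 5 lower genes, the male-biased list 0 higher and 1 lower, the IGF ligand and receptor list 1 higher and 0 lower, and all tested genes 463 higher and 397 lower, where edgeR gave 979 and 904. With an adjusted p in limma-voom, Mup3 (-0.15) was called and the Mup family had 5 lower genes. Mup3 was also called with total count scaling (-0.17), where the binding protein list had 2 lower genes. DESeq2's Wald test gave 601 lower genes in all and 1 higher in the ligand and receptor list. Leaving out 1 library gave -0.27 to -0.16 for Igf1, 1 to 2 lower binding protein genes, 1 to 2 higher ligand and receptor genes and 0 to 1 lower ones.

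The replicate numbers 1, 4 and 5 occur in both groups but share only a number. Deviations of same-numbered libraries from their group means correlated at -0.013, -0.013 and -0.011, and no DIO library correlated best with its own number. With the replicate block, on 6 libraries, 815 genes were higher and 726 lower. Igfbp1 was at 0.32 (adjusted p = 0.141) and the ligand and receptor list had 1 higher gene. The same 6 libraries without the block, an alternative chosen after seeing the data, gave 0.35 for Igfbp1 (adjusted p = 0.0796) and 1 higher gene in that list. These fits leave out DIO + DHA replicates 2 and 6, the highest libraries for Igfbp1 at 44.8 and 45.1 CPM. The block changed no other call of a member. The depth limits Cish most, at 4 to 21 counts per library, and the groups of 3 and 5 mice limit small changes such as those of Igf1 and Mup3.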
